A study of Drosophila melanogaster with 3 samples.

Results

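The 10 genes Egfr, spi, rho, aos, Sos, Ras85D, Raf, pnt, aop and sty of the fruit fly EGF receptor, Ras and Raf pathway were examined for peaks of GFP-tagged svp, out of 13968 protein-coding genes on the chromosome arms. The genes were chosen by their role, and a peak was assigned to a gene when its summit lay in the annotated gene body or within 5 kb of it. All 3 biological replicates came from 1 transgenic line expressing svp-eGFP, labelled as the svp-GFP strain, with GFP at the C-terminus of svp, a nuclear receptor of the COUP-TF family. Whole animals of both sexes were taken as white prepupae, their exact age being labelled unknown, and ChIP-seq was done with an anti-GFP antibody on sonicated chromatin. They form 1 group with no GFP-free control among the samples used here, so no group comparison and no test was made, and binding by the tagged protein cannot be told apart from background of the antibody. The combined list holds 5443 peaks that passed an irreproducible discovery rate (IDR) threshold, and 5425 of them lie on the arms. Each replicate has its own list of 30000 peaks, so depth is unknown. In whole animals, more cells with a bound site and more binding per cell cannot be told apart.

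In this pathway, rho is an intramembrane protease that releases the ligand encoded by spi, and the ligand activates the receptor Egfr. The secreted protein of aos is an inhibitor that holds the ligand back. Sos loads the small GTPase Ras85D with GTP, and Ras85D activates the kinase Raf at the head of the MAP kinase cascade. The cascade acts on a pair of ETS transcription factors, the activator pnt and the repressor aop (Yan), while sty (Sprouty) is a feedback inhibitor inside the cell. The pathway patterns the imaginal discs, which form the adult body at metamorphosis, and svp and Ras signalling interact genetically in the developing eye.

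IDR-thresholded peaks were unevenly spread over the 10 genes. With 5 kb around each gene, the kinase gene Raf and the inhibitory genes aop and sty held most of them. The short genes rho, Sos and Ras85D held none. Of the 10 genes, 7 had at least 1 IDR-thresholded summit, where 39.2% of all protein-coding genes did. There were 47 summits, of which 15 were at Raf, 10 at aop, 7 at sty, 5 at pnt, 4 each at Egfr and aos, and 2 at spi. The genes rho, Sos and Ras85D had 0. They are shorter than 20 kb, a size at which 37.4% of genes had a summit, against 62.9% at 20 kb or more. Raf, aop and sty are of the longer class. Raf alone held 31.9% of the summits, and Raf, aop and sty together 68.1%. The density over the 324.3 kb searched was 1.45 summits per 10 kb, against 0.394 over the arms, and 1.2 without Raf. The arms were taken at full length, with sequence far from any gene, so these densities are not of like regions. No summit was shared between members. Neighbouring intervals overlapped in 4 cases, which leaves 43 separate regions. Assignment bears on the order: if a summit is kept only where the nearest start of a protein-coding gene is the member's own, 36 remain, with 10 at aop and 9 at Raf. The count of sty depends on the window, with 3 summits in the gene body alone, 4 within 2 kb and 11 within 10 kb. In the body or within 2 kb, sty had fewer summits than pnt, which had 5 in both.

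Longer genes more often had a summit. Among the 5 members with a body of 20 kb or more (Egfr, Raf, pnt, aop and sty) all 5 had a summit, where 62.9% of 1020 such genes did. Of the 5 shorter members, 2 had one (spi and aos), against 37.4% of the shorter genes. At least 5 summits were found at 4 members, all of them long, against 2.76% of all genes and 19.3% of the long ones. Raf stood near the top of the genome: 8 protein-coding genes had more than 15 summits, and 0.980% of the long genes had as many or more. For aop the share of long genes with as many or more was 3.92%, for sty 9.31%, for pnt 19.3% and for Egfr 25.6%. Counts like those of Egfr and pnt were common among genes of their size class.

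**Figure D1:**
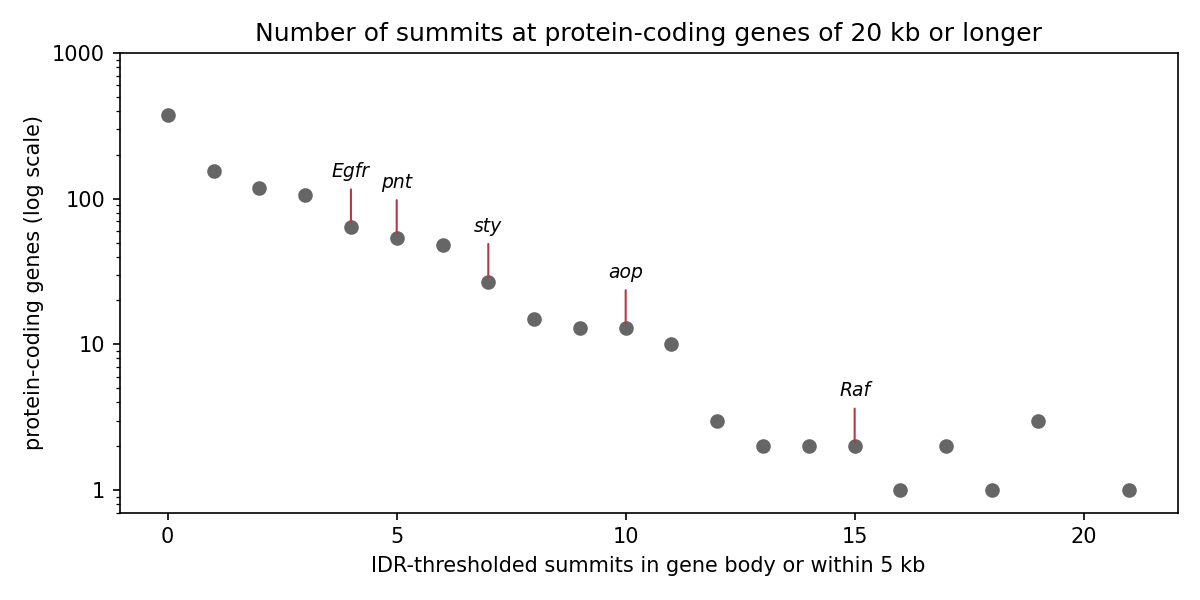
Each point gives how many protein-coding genes of 20 kb or longer (vertical axis, log scale) had the number of IDR-thresholded summits on the horizontal axis, counted in the gene body and 5 kb on either side. Raf, with 15, lies in the sparse tail, aop with 10 and sty with 7 lie short of it, and Egfr and pnt lie where genes are many.

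Raf had the most summits in each replicate, and the order of the other genes varied. Among the 5000 strongest peaks of a replicate by the authors' signal value, Raf had 16, 12 and 14 summits in replicates 1, 2 and 3 (14 ± 2, SD, n = 3). For aop the counts were 10, 8 and 7 (8.33 ± 1.53, SD, n = 3), and for sty 7, 6 and 8 (7 ± 1). The lowest count of Raf was above the highest of every other member, whereas those of aop and sty overlapped. Egfr had 4, 4 and 5 summits, aos 5, 2 and 2, pnt 4, 3 and 3, and spi 2, 5 and 3. These 4 genes overlapped with each other and cannot be ordered. At least 1 such summit was found at 8, 7 and 7 of the 10 genes, against 35.0%, 43.3% and 41.3% of all protein-coding genes in replicates 1, 2 and 3. In total the members had 49, 40 and 42 of these summits (43.7 ± 4.73, SD, n = 3).

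**Figure D2:**
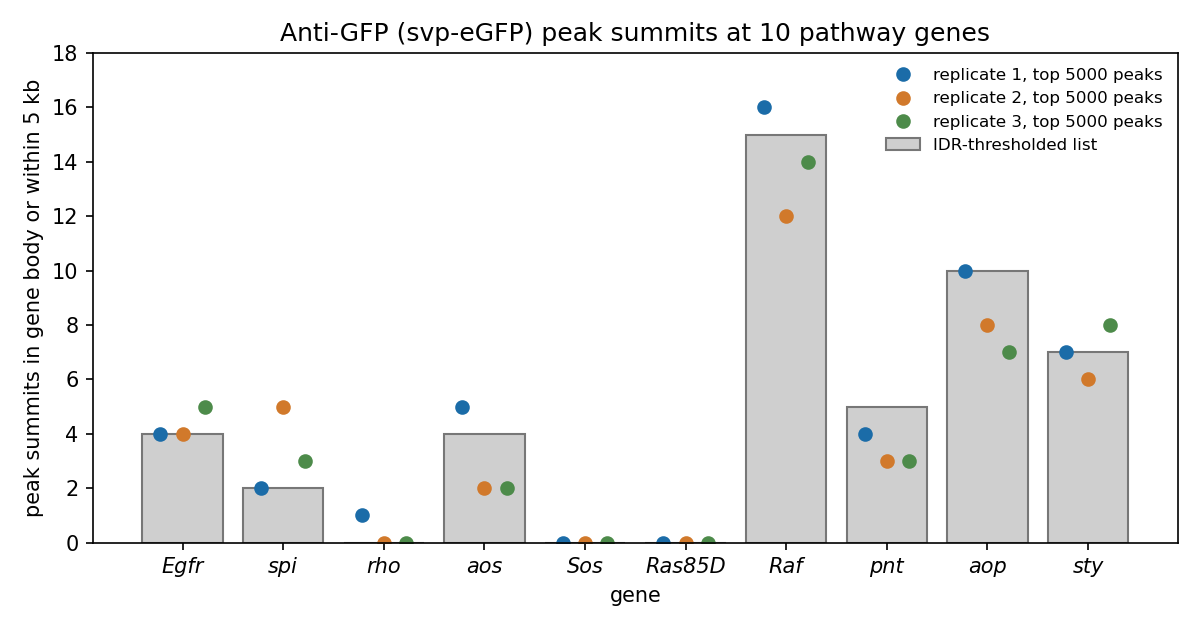
Peak summits per gene in the body or within 5 kb: grey bars show the IDR-thresholded list and coloured points the 5000 strongest peaks of each replicate. The 3 replicates put Raf at 12 to 16 summits, apart from all other genes, and Sos and Ras85D at 0.

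Most member peaks were found in every replicate, as were most peaks of the whole list. The IDR-thresholded list was itself made from these 3 replicates, so their support and ranks are no independent check of it. A summit was called supported by a replicate when it lay inside 1 of the 5000 strongest peaks of that replicate. All 3 replicates supported 32 of the 47 summits (68.1%, exact 95% binomial interval 52.9 to 80.9), against 56.7% of all summits on the arms, which lies inside that interval. The interval treats summits as independent, but they lie in 7 genes and some share a replicate peak, so it is no test of this difference. Of the others, 9 were supported by 2 replicates and 6 by 1. In the full lists, 44 of the 47 lay in a peak of every replicate. The share of all summits on the arms that did so is not given here, so this count has no background beside it. Over these 44 summits, which are not independent, Spearman's rho of the ranks was 0.80 for replicates 1 and 2, 0.86 for 1 and 3, and 0.88 for 2 and 3. The signal values of the 47 ran from 125 to 1492 with a median of 247, and the median over the arms was 218.

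**Figure D3:**
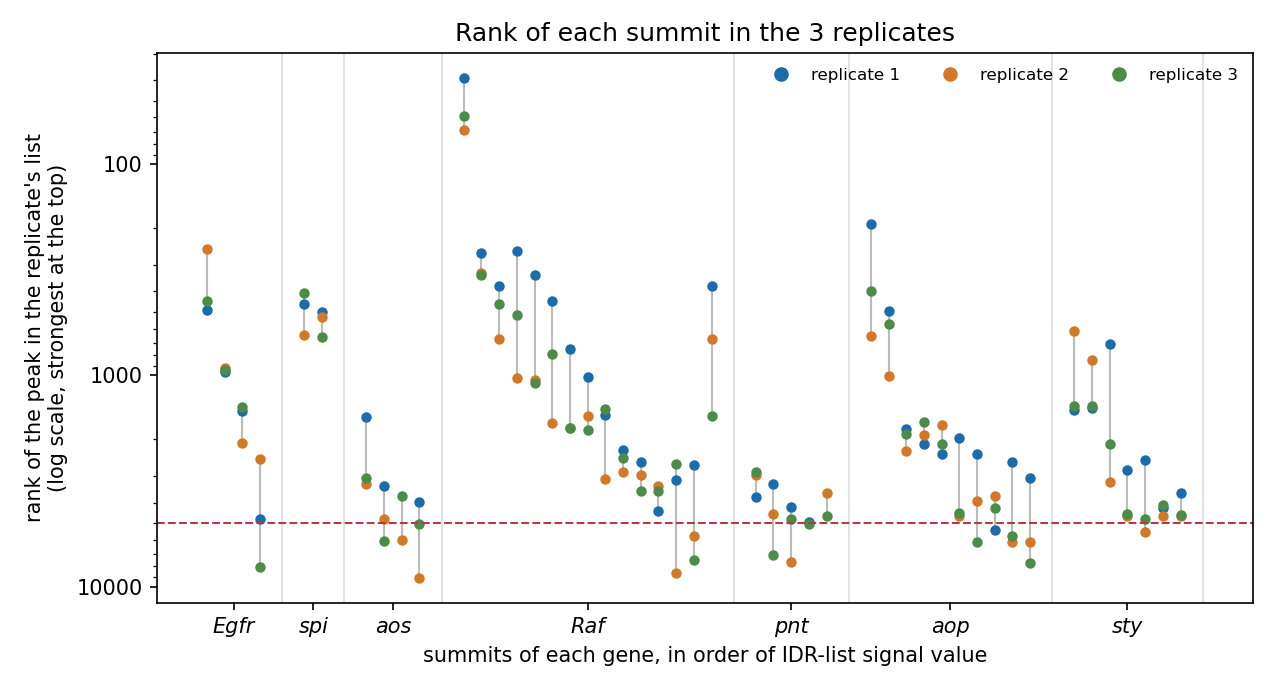
Rank of the strongest peak over each of the 47 summits in the list of each replicate (log scale, strongest at the top), with the summits of a gene ordered by signal value in the IDR-thresholded list and a dashed line at rank 5000. The first Raf summit ranks 39, 69 and 59, while no summit of pnt ranks higher than 2875 in any replicate.

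At the ligand gene spi (2L 19567900 to 19577315, minus strand), both summits lay just upstream of a transcription start site (TSS). The first (2L 19575617 to 19575937, signal 629) lay 202 bp from a start of spi. Its signal values in replicates 1, 2 and 3 were 190, 231 and 196, at ranks 459, 640 and 405. The second (2L 19572756 to 19573076, signal 593) lay 328 bp upstream of another start of the gene, with values of 184, 250 and 154 and ranks of 499, 528 and 656. Both were strong in each replicate, and no member had a higher median signal value than the 611 of spi. The most distal start of spi, 1 of its 3, had no summit within 500 bp.

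At aos (3L 16470386 to 16483650, minus strand), the inhibitor gene, 3 of the 4 summits had a signal value below the median of the whole list. The strongest (3L 16480321 to 16480776, signal 247) lay in an intron 3101 bp into the gene. It had signal values of 95.6, 88.5 and 60.5 in replicates 1, 2 and 3 and was the 1 aos summit supported by all 3. A second intronic summit had a signal value of 149. A summit 108 bp upstream of the start had 126, and lay in no peak of replicate 1 and at ranks 6014 and 3716 in replicates 2 and 3. Another 1109 bp upstream had 125. The whole of aos lies inside the gene CG33158, so these summits are also within that gene.

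The windows reaching 50 bp to either side of the strongest summit of spi and of aos are given. They are on the plus strand of the RefSeq release 6 genome (dm6). Capitals mark every match to the motifs described further on, here a GATAA site at spi.
spi, chr2L:19575739-19575839: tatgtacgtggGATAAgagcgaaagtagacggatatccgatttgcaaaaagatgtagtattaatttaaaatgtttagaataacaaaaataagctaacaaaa
aos, chr3L:16480499-16480599: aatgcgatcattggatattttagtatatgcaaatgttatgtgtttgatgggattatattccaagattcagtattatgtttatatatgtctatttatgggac

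The protease gene rho (3L 1463811 to 1468944, plus strand) had no IDR-thresholded summit, but a weak peak recurred at the same place in each replicate. Its summit lay 802, 792 and 811 bp from the start of rho in replicates 1, 2 and 3, inside the gene. The signal values were 39.1, 37.7 and 33.3, at ranks 4907, 8631 and 6131, so that replicate 1 alone placed it among its 5000 strongest. The list of the pooled replicates holds it at a signal value of 110 and rank 5928. The gene lies within Ptp61F, a phosphatase gene.

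Sos (2L 13813816 to 13819824) and Ras85D (3R 9510561 to 9513067), the exchange factor and the GTPase, were the emptiest genes. Sos had 0 peaks in the lists of 30000 of all 3 replicates and in the pooled list. Ras85D had 0 in replicates 1 and 3 and in the pooled list, and 1 in replicate 2, with a signal value of 40.7 and rank 7999, 3735 bp from its start. The share of all protein-coding genes without a peak in these lists is not given here, so these zeros have no background beside them. The regions of Sos and Ras85D, 16.0 and 12.5 kb, are the smallest with that of rho. These lists hold only peaks above a minimum, so weaker signal there is not analysed here.

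The receptor gene Egfr (2R 21522420 to 21559977, plus strand) had 4 intronic summits and none within 500 bp of its starts. The strongest (2R 21532025 to 21532420, signal 703) lay 9836 bp into the gene. Its signal values were 185, 336 and 189 in replicates 1, 2 and 3, at ranks 492, 252 and 443. Replicate 2 was the highest. A further summit with a signal value of 203 lay on its flank in an overlapping interval, and reached the 5000 strongest in 2 replicates. The second strongest (signal 464) lay 4891 bp beyond the internal start of Egfr, with values of 129, 194 and 128. The next (signal 324) lay 4020 bp before that start, with values of 100, 121 and 102. Of the 4 nested genes inside Egfr, CG30286 and CG30283 have starts closer to 3 of the summits than Egfr has, the nearest at 2050 bp from a summit. By nearest start, Egfr would therefore keep 1 of its 4 summits.

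Raf (X 2295466 to 2343870, plus strand), the kinase gene, carried a cluster of 10 summits around its distal start, over 12848 bp. The strongest peak of the 10 members lay there, in an intron 5242 bp into the gene (X 2300500 to 2300904, signal 1492, rank 50 of the IDR-thresholded list). Its signal values were 533, 529 and 445 in replicates 1, 2 and 3, at ranks 39, 69 and 59. The next strongest summits of the cluster had signal values of 624 in the 5' UTR, 857 bp from the start, and of 608 upstream of it. Their values in replicates 1, 2 and 3 were 211, 227 and 185, and 254, 184 and 171. Intronic summits followed with 533, 482, 373, 290, 156 and 128, and an upstream one with 240. The summit of 608 lay 286 bp from a start of the neighbouring gene CG2865 and 1769 bp from that of Raf. Of the 10, 9 were supported by all 3 replicates, and 2 of these 10, 202 bp apart, lay in overlapping intervals and under the same peak of replicates 1 and 2.

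Beyond a gap of 11005 bp without a summit, 5 more were spread through the rest of the Raf body. The strongest of them (X 2321936 to 2322231, signal 770) lay in an intron of Raf and within the non-coding gene lncRNA:CR34052, 18213 bp before the internal start of Raf. Its values were 252, 305 and 211, and its ranks 264, 328 and 335. The protein-coding start nearest to it was that of CG14050, at 3699 bp. Another, with a signal value of 155, lay 135 bp from the start of Ilp6, an insulin-like peptide gene of the fat body that is nested in Raf. It was supported by replicate 1 alone, at rank 2641, and lay at 5778 and 7462 in the others. The summit with 342 lay 2053 bp from that start. Those with 206 and 249 were nearest to CG14050 and CG2854, the other genes nested in Raf. Only summits of the cluster had a Raf start as the nearest: the 5 others and the summit of 608 had a nearer start of another gene.

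Windows reaching 50 bp to either side of the summit, on the plus strand of the same genome, are shown for the strongest Raf summit of the cluster, for the strongest outside it, and for the cluster summit of signal value 290. The last holds a run of GA repeats, in capitals, while the strongest pair holds none of the motifs searched.
Raf, chrX:2300658-2300758: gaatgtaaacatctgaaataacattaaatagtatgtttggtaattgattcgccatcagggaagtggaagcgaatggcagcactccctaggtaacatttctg
Raf, chrX:2322035-2322135: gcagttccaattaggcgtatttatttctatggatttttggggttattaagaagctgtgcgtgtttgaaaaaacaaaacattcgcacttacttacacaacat
Raf, chrX:2302246-2302346: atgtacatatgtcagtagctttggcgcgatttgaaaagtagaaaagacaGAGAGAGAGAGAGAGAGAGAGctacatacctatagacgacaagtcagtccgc

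The ETS genes at the end of the pathway differed. The repressor gene aop (2L 2156484 to 2178754, minus strand) had 10 summits in a region of 32.3 kb, or 3.10 per 10 kb, above the 2.57 of Raf. Counting overlapping intervals once leaves 8 at aop and 14 at Raf, which brings the densities closer. The 10 summits fell at the starts of aop, with a gap of 10205 bp between. Of these, 6 lay from 1474 bp upstream to 3556 bp downstream of the distal start. The other 4 lay 177 to 3466 bp upstream of the internal start. The strongest (2L 2163518 to 2163820, signal 705) lay 2131 bp upstream of the internal start. Its signal values were 281, 230 and 197 in replicates 1, 2 and 3, at ranks 192, 652 and 398. The second (signal 543) had 185, 187 and 165. At the distal start itself, a summit 23 bp downstream had a signal value of 187 and was supported by all 3 replicates, with ranks of 1969, 4651 and 4465. All 10 summits had an aop start as the nearest, and 6 were supported by all 3 replicates. The weakest, with 139 and 150, were supported by replicate 1 alone.

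The activator gene pnt (3R 23290231 to 23346167, minus strand) is the longest member, and its 5 summits were among the weakest. At 0.758 per 10 kb it had the lowest density of the genes with a summit. All 5 were intronic: 4 lay 7491 to 12302 bp from the distal start, and 1 lay 2389 bp upstream of an internal start. The strongest (3R 23337160 to 23337615, signal 203) had signal values of 49.0, 95.3 and 63.4 in replicates 1, 2 and 3, at ranks 3782, 2956 and 2875. It was the 1 pnt summit supported by all 3 replicates. The others had signal values of 133 to 143, and 2 of them lay in no peak of 1 replicate. None lay within 500 bp of the 3 starts of pnt.

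Windows reaching 50 bp to either side of the summit, on the plus strand of the same genome, are shown for the strongest aop summit, for an aop summit of signal value 298 with GATAA sites on both strands, and for the pnt summits of 203 and 143. The last is the 1 member window with a nuclear receptor half-site, next to a GATAA site, both in capitals.
aop, chr2L:2163608-2163708: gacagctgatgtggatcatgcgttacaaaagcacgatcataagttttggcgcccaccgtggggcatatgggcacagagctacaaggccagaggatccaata
aop, chr2L:2177456-2177556: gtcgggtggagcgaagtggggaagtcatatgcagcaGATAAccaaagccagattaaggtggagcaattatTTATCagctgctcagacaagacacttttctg
pnt, chr3R:23337338-23337438: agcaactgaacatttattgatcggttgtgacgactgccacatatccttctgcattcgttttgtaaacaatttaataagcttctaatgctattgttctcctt
pnt, chr3R:23338626-23338726: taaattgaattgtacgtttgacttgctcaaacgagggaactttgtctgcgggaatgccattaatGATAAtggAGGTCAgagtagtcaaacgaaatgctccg

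At the feedback inhibitor gene sty (3L 3401153 to 3424935, minus strand), 4 of the 7 summits lay beyond the 3' end of the gene. The strongest (3L 3399215 to 3399959, signal 446) lay 1395 bp downstream of the gene. It had signal values of 100, 236 and 103 in replicates 1, 2 and 3, at ranks 1458, 614 and 1394, so that replicate 2 stood above the others. The summits with 322, 172 and 135 lay 3099, 4841 and 2469 bp downstream. Inside the gene, an intronic summit with 411 lay 12162 bp from the internal start, with values of 102, 204 and 103. Weaker ones with 166 and 161 lay 958 bp upstream of the internal start and 1704 bp from the distal start. All 3 replicates supported 6 of the 7. For the summits with 172 and 322 the start of Ids was nearer, at 18044 and 19786 bp, than those of sty.

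Windows reaching 50 bp to either side of the summit, on the plus strand of the same genome, are shown for the strongest summits downstream of sty and inside it. Capitals in the second mark a GATAA and a GAGAG site, read from the other strand.
sty, chr3L:3399708-3399808: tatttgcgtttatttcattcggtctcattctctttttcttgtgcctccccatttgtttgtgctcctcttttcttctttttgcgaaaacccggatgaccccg
sty, chr3L:3405749-3405849: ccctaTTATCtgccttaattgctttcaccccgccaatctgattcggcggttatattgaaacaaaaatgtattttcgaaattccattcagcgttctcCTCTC

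**Figure D4:**
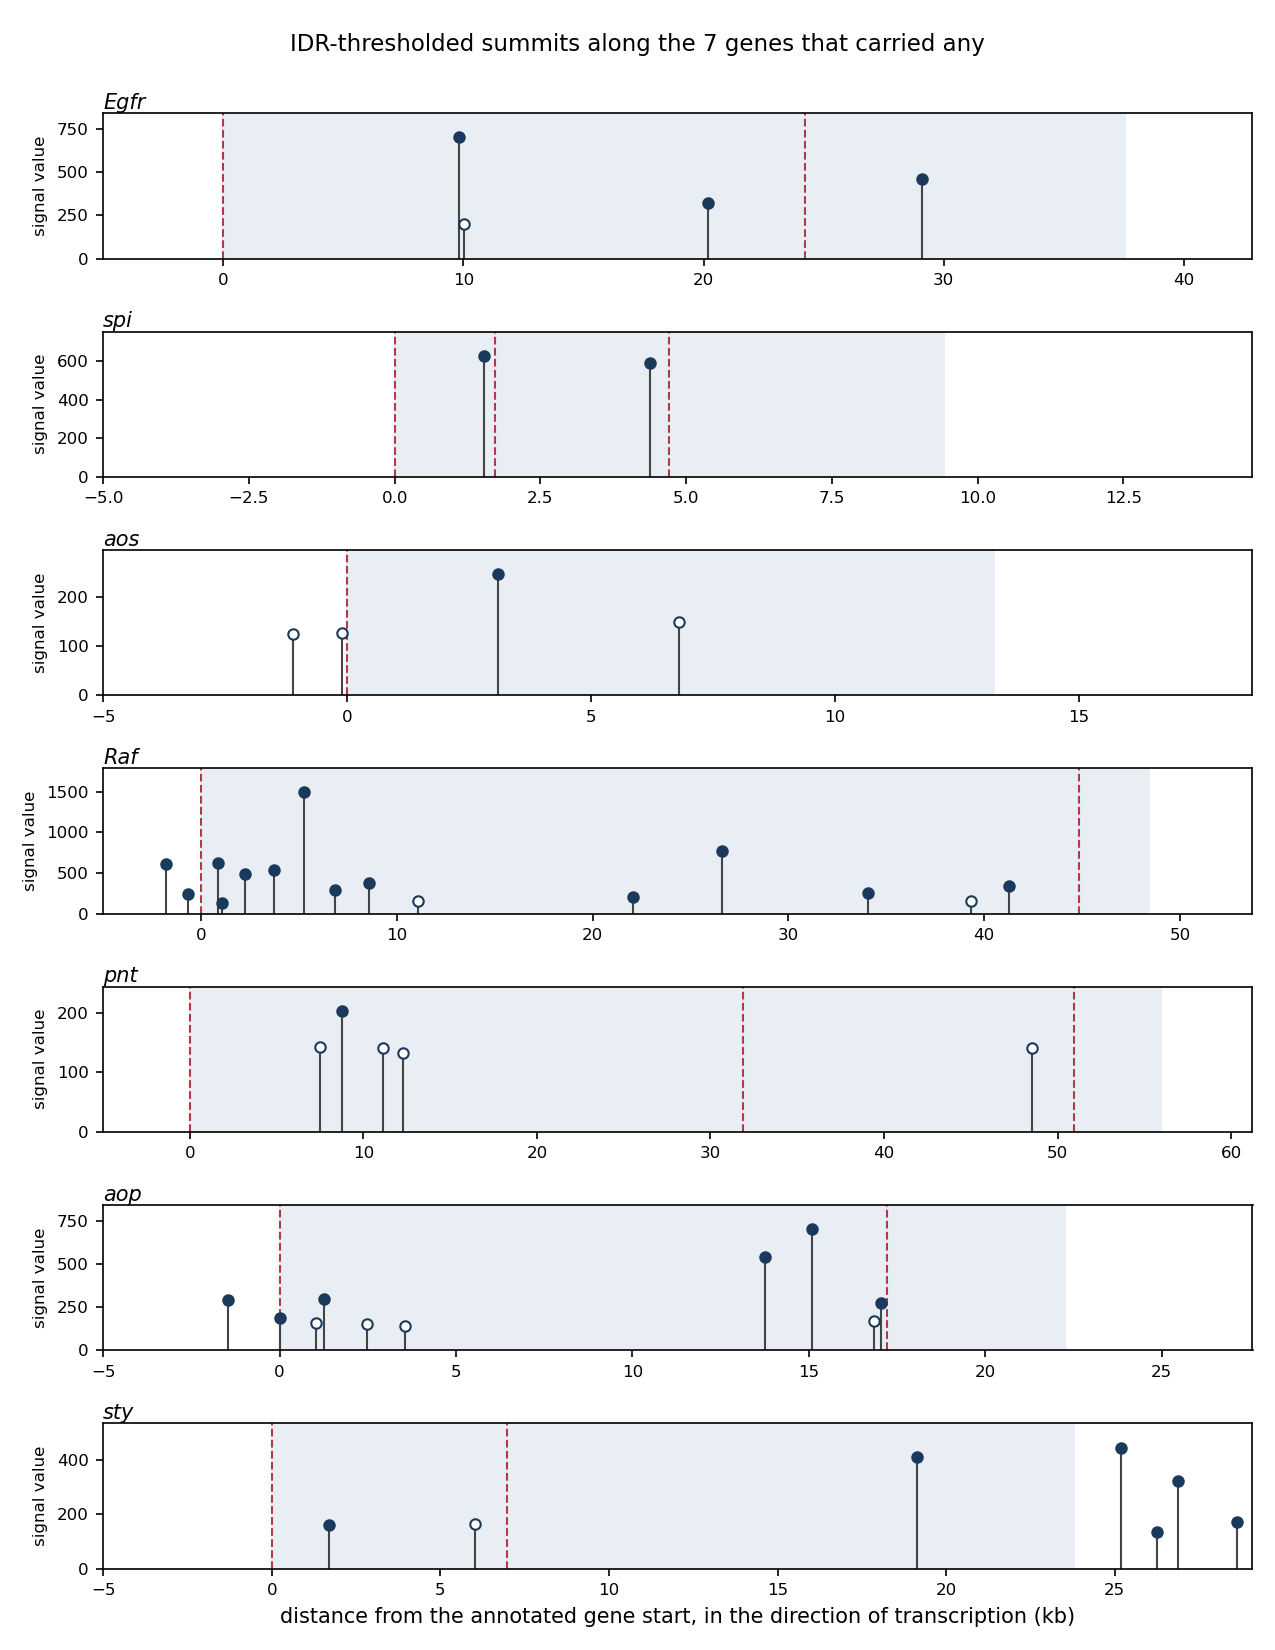
Signal value of each IDR-thresholded summit against its distance from the annotated gene start in the direction of transcription, for the 7 genes with any. Shading marks the gene body, dashed lines the annotated starts, filled points summits supported by all 3 replicates and open points the others. Raf shows the cluster at its distal start, aop a group at each start, and sty 4 summits past its 3' end.

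Own promoters held few of the summits. A summit within 500 bp of an own start was found at 3 of the 10 genes, spi, aop and aos, against 12.6% of all protein-coding genes. That of aos had a signal value of 126 and was supported by 1 replicate. The count was 2 genes above the median signal value, with the 5000 strongest pooled peaks, or without any 1 replicate. The shares of all genes in these settings are not given here. Among the 5 long members the count in the main setting was 1, aop, against 23.5% of long genes. With a distance of 1 kb it was 5 of the 10 genes, and the share of all genes at that distance was not computed. Introns of protein-coding genes held 32 of the 47 summits (68.1%), against 43.3% of all summits on the arms. Promoters of any protein-coding gene held 8 (17.0%, against 32.7%), space between genes 6, and a 5' UTR 1. The median distance to the nearest start of a protein-coding gene was 2470 bp, against 1412 bp over the arms. More than 1 kb from such a start lay 36 of the 47 summits (76.6%, against 56.4%). Member summits were taken only in or near gene bodies, mostly long ones, and those of the arms anywhere. These classes and distances are therefore not of like regions, and summits at other long genes were not set apart for comparison. The 5 kb limit passed close to a few summits. The farthest inside it was the sty summit 4841 bp out, with 172, and the nearest outside were at 5413 bp from aos, 5468 bp from sty and 5604 bp from rho, with signal values of 288, 173 and 210.

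Below the IDR threshold the same genes had many weaker peaks. The pooled list of 30000 holds 141 summits at the members, 94 more than the IDR-thresholded list. The replicate lists hold 122, 157 and 142, or 3.76, 4.84 and 4.38 per 10 kb, against 2.18 over the arms in each. Here too the arms were taken at full length, so the regions are not alike. Raf had 29, 38 and 32, aop 22, 24 and 25, and Egfr 18, 24 and 18. Although pnt had few strong summits, its lists hold 18, 25 and 20.

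Sequence motifs were searched around the summits, since svp is a nuclear receptor. The half-site AGGTCA lay within 50 bp of 1 of the 47 summits on either strand (2.13%), at pnt, 24 bp from the summit. The count was 0 within 25 bp and 3 within 100 bp, but the shares of all summits at these widths are not given here. The half-site within 50 bp lay at 5.35% of all summits on the arms, and in 2.75% of windows of the same length 500 bp to the right of them. The extended half-site AAAGGTCA, which contains the former, and DR1, a direct repeat of the half-site with 1 base between and up to 1 mismatch, lay at 0, against 0.774% and 0.0922% of all summits. GATAA, bound by GATA factors, lay at 9 member summits (19.1%, against 31.1% of all and 18.6% of the shifted windows), in all 7 genes. GAGAG, bound by the GAGA factor, lay at 11 (23.4%, against 14.0% and 13.3%), in Raf, aop, aos and sty. The ETS site CCGGAAG, of the family of pnt and aop, and the AP-1 site TGACTCA lay at 0, against 0.424% and 0.977%. The median GC content of the windows was 37.6% for the members and 37.6% for all. No test was made, and a match is no evidence of binding.

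Other genes of the pathway also carried peaks, many of them at neighbouring promoters. Of 28 further genes listed by role, 1 symbol matched no gene, and 19 of the other 27 (70.4%) had an IDR-thresholded summit within 5 kb, against the 39.2% of all genes. The count was 4 of 6 for ligands and their processing, 5 of 7 for adaptors and regulators of Ras, 4 of 7 for the MAP kinase cascade and 6 of 7 for nuclear effectors. A summit within 500 bp of an own start was found at 7 of the 27, against 12.6% of all protein-coding genes. Of these 7, 5 were nuclear effectors. In the gene body alone, 10 of the 27 had a summit, against 13.4% of all genes.

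Of the 4 highest values, 1 was near an own start, at ttk. The transcription repressor gene ttk had a summit of 1384 at 382 bp from its start, ranking 146, 39 and 68 in replicates 1, 2 and 3. The gene edl, whose product binds ETS factors, had 1276 in its body, at ranks 90, 70 and 94, where the nearest start was that of CG33136, at 2967 bp, and its own lay 4777 bp away. The 1469 near the adaptor gene Shc lay 182 bp from a start of aay, and the 1302 near the scaffold gene cnk 291 bp from a start of l(2)k01209. Likewise, the 580 near the scaffold gene Sur-8 lay 85 bp from a start of sds22, and the 488 near the Ras GTPase-activating gene Nf1 lay 366 bp from a start of CG43116. In the body of kek1, which encodes a receptor inhibitor, a summit of 489 lay in coding sequence. The repressor gene cic had 416 in its 5' UTR, 563 bp from a start. Among the 8 genes with none were the ubiquitin ligase gene Cbl, the phosphatase gene csw, the ligand gene grk and the scaffold gene ksr.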

How the data were processed

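Peak lists in narrowPeak format on dm6 were used for 3 replicates of 1 group. Per the deposited manifests, each replicate list came from its own alignments and a further file that the control-normalized tracks also list, the pooled list from the alignments of all 3 and that file, and the IDR-thresholded list from these 4. Which aligner, caller, IDR threshold and depth were used is not given here in the sources. The signal value of each peak is as deposited by the authors, its scaling unstated, and was used to rank peaks within a list. The authors' −log10 q-values, in another column, were not analysed. Lists on dm3 were not used.

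Summits, counted from 1, were set against the Ensembl 115 annotation (FlyBase release 6.54) and the RefSeq release 6 genome, after peak ends were checked against the arm lengths. A summit within 500 bp of any protein-coding start was classed as promoter first, and otherwise by UTR, coding or other exon before intron. Motifs were exact matches within 50 bp of the summit, except DR1. Steps were tested on simulated data. Python 3.11.15, numpy 2.4.6, scipy 1.17.1, pandas 2.3.3 and matplotlib 3.10.9 were used.

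Members, lists and rules were chosen with earlier results of these data known. The text names all members, any gene whose start is nearer to a member summit, and of the other pathway genes the 8 with the highest summits and 4 without one. With 3 samples of 1 group, no likeness between genes was computed. The interval given covers counting error over peaks only.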

Additional observations from a re-analysis of the deposited data

How the results depend on the processing

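Of 65 recomputed summary values, 49 stayed close to those reported. For counts, close meant within 1.5 times. For the share of all genes it meant inside the exact 95% binomial interval over genes (38.4% to 40.0%), a far narrower bound. This tally overstates stability, since some settings could change little. Keeping the highest summit of each interval changed no value, as the 47 member summits lie in 47 intervals. Without 1 replicate, only summits supported by both others were kept, so support held for all of them by rule. The number of members with a summit was 7 in most settings, 6 among summits above the median signal value of the list, and 9 with 10 kb around each gene, where rho and Ras85D were added. The share of all genes with a summit moved from 39.2% to 13.4% with the gene body alone, 27.7% with 2 kb, 53.3% with 10 kb, 27.9% above the median, 38.0% with the 5000 strongest pooled peaks, and 29.5% to 32.5% without 1 replicate, that is, with summits supported by both others. With the gene body alone, 10 other pathway genes had a summit in place of 19. Above the median lay 25 of the 47 member summits. Members with a promoter summit rose from 3 to 5 with a distance of 1 kb, for which the share of all genes was not computed. The number of member summits with a half-site was 0 above the median, 3 within 100 bp, 0 within 25 bp, and 0 to 1 without 1 replicate. The shares of all summits in these settings are not given here. Without 1 replicate the member summits were 34 to 36 and members with a promoter summit 2 in each case. Support by all 3 replicates was 27 with 50% reciprocal overlap and 44 with the full lists. Counting overlapping intervals once (43 summits) and keeping summits by nearest start (36) were chosen after seeing the data. Of 80 counts for single genes, 65 were within 1.5 times; among the others, sty had 3 to 11 summits with other windows, aos 2 to 7, and spi 5 in replicate 2. No paired analysis was possible because the labels give 1 group. Depth is unknown, so a gene without a peak may still hold weak signal.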
